A study of Mus musculus with 36 samples.

Results

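Regulator of G-protein signalling (RGS) genes were followed in cultured mouse microglia and astrocytes exposed to mixtures that engage the kinase RIPK1. The 8 genes Rgs1, Rgs2, Rgs3, Rgs10, Rgs14, Rgs16, Rgs18 and Rgs19 were chosen by gene symbol, with earlier results of these libraries known. All 8 had a row among the 15385 genes of the microglial table, and 6 had a row among the 14551 genes of the astrocyte table, where Rgs14 and Rgs18 were not listed. The earlier results included the differences of Rgs2 with T/5z and with T/5z/N from DMSO and the unequal Nec-1s differences of Rgs1 in microglia. These values and the Nec-1s differences they are built from are therefore given as descriptions, without a test. The same holds for the differences of Rgs1 and Rgs2 between T/S/Z and T/5z. It also holds for the differences of Rgs1 from DMSO with a mixture in microglia, because the libraries with a mixture enter its known value.

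RNA-seq was performed on 24 microglial and 12 astrocyte libraries, all from cells of C57BL/6 pups aged 2 to 4 days, treated in culture for 4 h. The microglial groups, with 4 libraries each, were the vehicle DMSO, N (Nec-1s, an inhibitor of RIPK1 kinase activity), T/5z (TNF with 5z-7, an inhibitor of the kinase TAK1), T/S/Z (TNF with a Smac mimetic and the caspase inhibitor zVAD), and the pair T/5z/N plus T/S/Z/N, in which Nec-1s joined the mixture. The astrocyte groups, with 3 libraries each, were DMSO (written DSMO in the labels), N, T/S/Z and T/S/Z/N. Microglia were taken from mixed glial cultures by CD11b selection, and astrocytes from what remained, with a further positive selection kit. By the sample labels, the libraries of each cell type were made by a different provider, while the paper names the same sequencing platform for both. Each table was scaled separately. Cell type and provider therefore cannot be told apart, and no test was run across tables. The study describes its replicates as biological, with cells isolated from different litters, and the labels do not tie single libraries to a litter. It also reports that both mixtures killed microglia within hours, and that Nec-1s lessened this death. In astrocytes it saw no loss of viability that depended on RIPK1 kinase activity. The part of cell death in the values below was not tested.

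RGS proteins bind active G-protein alpha subunits and speed up their hydrolysis of GTP, which ends signalling downstream of G-protein-coupled receptors. Their targets are mainly alpha subunits of the Gi and Gq classes. Microglia depend on such receptors to sense nucleotides, chemokines and complement fragments, and several RGS genes are known to change their transcript level quickly when immune cells are activated. Rgs1, Rgs2, Rgs3, Rgs16 and Rgs18 belong to the small R4 subfamily, Rgs10 and Rgs14 to the R12 subfamily, and Rgs19 to the RZ subfamily.

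Expression is given throughout as a level, log2(FPKM + 1), where FPKM is the number of sequenced fragments scaled to transcript length and library size, and a difference is the first group minus the second on that scale, with its standard error (SE) from limma. A gene was called where the difference exceeded 1.5-fold and the adjusted p (limma, Benjamini-Hochberg over all 10524 microglial or 13842 astrocyte genes tested) was under 0.05. Because 1 is added before the log, folds of weakly expressed genes such as Rgs18 are understated. Libraries of a group correlated at 0.9927 to 0.9971 in microglia and 0.9831 to 0.9952 in astrocytes, and the 75th percentile of each library lay at 4.11 to 4.16 and 4.73 to 4.74. The microglial values carry a replicate adjustment, described under the processing. Their library ranges, overlaps, SDs and correlations are those of adjusted values. The 10 microglial markers summed to 5890 to 7170 FPKM in microglia and to 47.8 to 84.4 FPKM in astrocytes, while the 9 astrocyte markers summed to 2920 to 3400 FPKM in astrocytes and to 4.88 to 22.2 FPKM in microglia. The median difference over all genes was -0.11 for astrocytes with T/S/Z and lay within 0.08 of 0 in the microglial comparisons. In bulk libraries, fewer cells of a type and less RNA per cell cannot be told apart.

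Rgs2, Rgs1 and Rgs18 lie in this order on mouse chromosome 1 (build GRCm38) in the same orientation, Rgs2 (ENSMUSG00000026360) at chr1:143999338-144004161, Rgs1 (ENSMUSG00000026358) at chr1:144242296-144249242 and Rgs18 (ENSMUSG00000026357) at chr1:144752683-144775435, all on the minus strand. The gap was 238.1 kb between Rgs2 and Rgs1 and 503.4 kb between Rgs1 and Rgs18. Rgs16 (ENSMUSG00000026475) lies farther along the chromosome at chr1:153740349-153745468 on the plus strand, 40.03 kb beyond Rgs8. Rgs3 (ENSMUSG00000059810) is on chromosome 4, Rgs10 (ENSMUSG00000030844) on chromosome 7, Rgs14 (ENSMUSG00000052087, chr13:55369732-55384687) on chromosome 13 and Rgs19 (ENSMUSG00000002458) on chromosome 2. The gene models of Rgs3, Rgs10 and Rgs16 overlap another annotated gene. The partners Gm11209, Gm15503 and Gm28513 had no row in either table. Those of Rgs3 and Rgs16 are antisense, and whether microglial reads were assigned by strand is not given in the sources used here, so reads of these pairs cannot be told apart there. The partner of Rgs10, Gm15503, lies on the same strand, so strand does not separate the reads of that pair in either cell type.

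RefSeq promoter entries (build GRCm38.p6) were matched for 5 of the 8 genes, Rgs2, Rgs3, Rgs10, Rgs16 and Rgs19. The 250 bases before the start of Rgs16 and of Rgs2 are shown because these genes had the largest rise from DMSO in astrocytes and the largest fall from DMSO in microglia among the 8 genes. Capitals mark matches, on either strand, to the GC box GGGCGG, the CCAAT box CCAAT, or the core TGACG of a cAMP response element. The windows are chr1:153740103-153740352 on the plus strand and chr1:144004150-144004399 on the minus strand, each printed 5′ to 3′ on the strand of the gene.
Rgs16: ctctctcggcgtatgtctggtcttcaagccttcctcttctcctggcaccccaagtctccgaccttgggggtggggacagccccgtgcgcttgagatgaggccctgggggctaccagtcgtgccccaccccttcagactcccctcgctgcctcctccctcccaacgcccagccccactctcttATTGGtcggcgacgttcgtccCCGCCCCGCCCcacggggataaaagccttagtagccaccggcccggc
Rgs2: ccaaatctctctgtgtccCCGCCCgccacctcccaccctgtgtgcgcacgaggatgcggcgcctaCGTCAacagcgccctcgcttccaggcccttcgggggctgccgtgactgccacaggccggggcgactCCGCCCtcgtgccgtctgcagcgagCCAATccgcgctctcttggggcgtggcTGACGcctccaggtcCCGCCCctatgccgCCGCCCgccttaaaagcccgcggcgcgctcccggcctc
The Rgs16 window held 2 GC boxes, which share a base, and 1 CCAAT box, and the Rgs2 window held 4 GC boxes, 1 CCAAT box and 2 TGACG cores. The same search over all 32851 promoter windows of this length matched the GC box in 32.7% of them, the CCAAT box in 33.8% and the TGACG core in 17.8%. Neither window held the kappaB consensus (7.25% of all windows), the AP-1 site TGANTCA (6.75%), the full element TGACGTCA (1.55%) or the TATA box TATAAA (12.4%). The windows at both annotated starts of Rgs3 held a TATA box and no kappaB consensus. These are letter matches only.

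In DMSO-treated microglia the 8 genes spanned a wide range of levels per transcript length. Rgs10 stood highest with a mean of 7.53 ± 0.099 (SD, n = 4), followed by Rgs2 at 6.81 ± 0.044, Rgs19 at 5.37 ± 0.080, Rgs1 at 4.47 ± 0.25 and Rgs14 at 2.76 ± 0.19. Rgs3 (1.60 ± 0.084) and Rgs16 (1.56 ± 0.20) had overlapping libraries, and Rgs18 was lowest at 1.08 ± 0.24. Nec-1s alone called none of the 8 genes and 0% of all genes in microglia. At an unadjusted p under 0.05, 892 of the 10524 genes differed with Nec-1s alone, among them Rgs1 (-0.13, SE 0.041) and Rgs3 (0.19, SE 0.074).

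**Figure D1:**
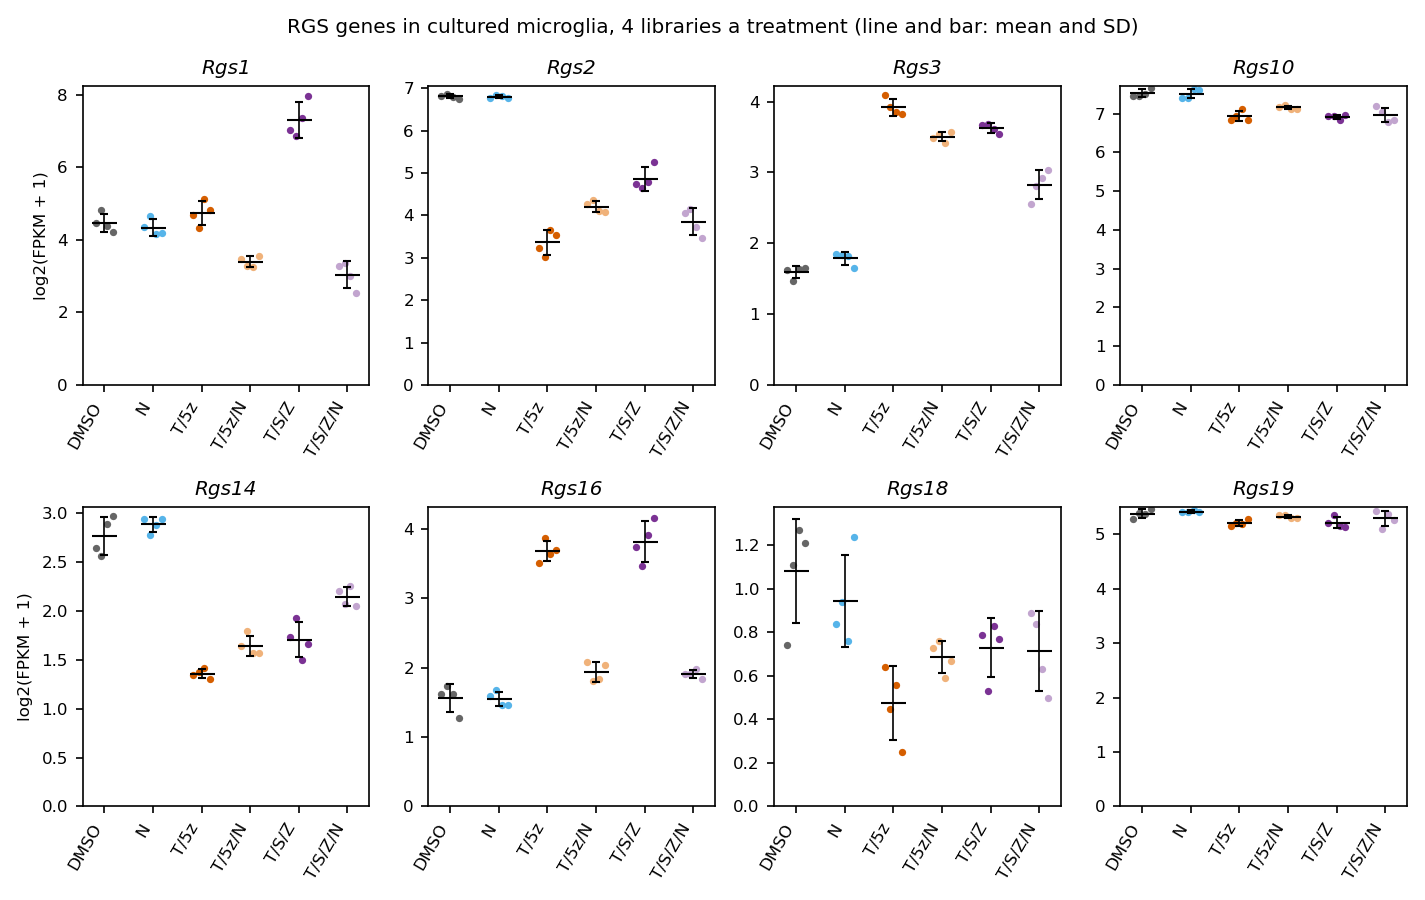
Level of each RGS gene, as log2(FPKM + 1) on the vertical axis, in every microglial library of the 6 treatments on the horizontal axis, with points for libraries and the line and bar for mean and SD (n = 4). Rgs1 is highest with T/S/Z (6.87 to 7.97), Rgs2 is highest in DMSO and N libraries (6.75 to 6.86), and Rgs3 and Rgs16 are higher with T/5z and T/S/Z than in DMSO.

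With T/5z against DMSO, Rgs3 and Rgs16 were called higher, where 11.1% of all genes were called higher. Rgs10, Rgs14 and Rgs18 were called lower, where 13.3% were called lower. Rgs2 was past the limits downward as a described value. As the genes were chosen with the T/5z value of Rgs2 known, nothing is read from these calls as a count. With T/S/Z, Rgs3 and Rgs16 were called higher (12.2% of all genes) and Rgs2, Rgs10 and Rgs14 lower (17.5% of all genes). Rgs1 was past the limits upward as a described value. Its T/S/Z libraries enter a known value, so nothing is read from these calls as a count either. The comparisons with DMSO share their DMSO libraries, so their values are set side by side only.

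Rgs1, which limits signalling from chemokine receptors in lymphocytes, separated the 2 mixtures. Its level was 4.47, 4.81, 4.39 and 4.22 in the DMSO libraries, 4.68, 4.34, 5.12 and 4.82 with T/5z, and 7.02, 6.87, 7.36 and 7.97 with T/S/Z. The T/5z libraries overlapped those of DMSO, with a difference of 0.27 (SE 0.18) that was 0.52 without replicate 2 (still under the 1.5-fold limit), 0.11 without replicate 3 and 0.16 without replicate 4, whereas all T/S/Z libraries lay above every other microglial library. The difference between T/S/Z and DMSO was 2.84 (SE 0.23), a 7.14-fold higher level, given without a test because these T/S/Z libraries enter the known value. Between the mixtures the level was 5.93-fold higher with T/S/Z (2.57, SE 0.14), described without a test.

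With Nec-1s, Rgs1 was 3.48, 3.29, 3.26 and 3.56 in the T/5z/N libraries and 3.29, 3.35, 3.00 and 2.54 in the T/S/Z/N libraries, below every DMSO library in each case. The Nec-1s difference was -1.34 (SE 0.12) after T/5z and -4.26 (SE 0.27) after T/S/Z, lower in 4 of 4 same-numbered libraries each time. The gap between these differences was 2.92 (SE 0.32), which was known before the genes were chosen. Against DMSO, T/5z/N libraries were lower by -1.07 (SE 0.12) and T/S/Z/N libraries by -1.42 (SE 0.084), also described without a test. Rgs1 was thus 2.10-fold and 2.68-fold below the vehicle level when Nec-1s was present with either mixture. Nec-1s alone gave no call, and the libraries of the mixtures with Nec-1s overlapped each other.

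Rgs2, an RGS protein with preference for Gq alpha subunits, was lower in every library with either mixture than in any DMSO library. Its level was 6.82, 6.86, 6.80 and 6.75 in DMSO, 3.23, 3.03, 3.66 and 3.54 with T/5z, and 4.75, 4.65, 4.78 and 5.27 with T/S/Z. The T/5z difference was -3.44 (SE 0.12), described without a test. The T/S/Z difference was -1.95 (SE 0.11, limma adjusted p = 3.47e-06), a 3.86-fold lower level.

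Nec-1s moved Rgs2 in opposite directions in the 2 settings. With T/5z/N its level was 4.27, 4.37, 4.10 and 4.09, above every T/5z library, and under T/S/Z/N 4.06, 4.15, 3.73 and 3.46, below every T/S/Z library. The difference with Nec-1s was 0.84 (SE 0.13) after T/5z, higher in 4 of 4 same-numbered libraries and described without a test. After T/S/Z it was -1.01 (SE 0.18, limma adjusted p = 0.00234), lower in 4 of 4. The Nec-1s differences were 1.85 apart (SE 0.25), also given as a description because the T/5z and T/5z/N values were known. T/5z/N remained -2.60 (SE 0.054) from DMSO, described without a test, and T/S/Z/N -2.96 (SE 0.098, limma adjusted p = 9.34e-07), which is 6.07-fold and 7.77-fold below the vehicle level. The order of group means was DMSO, N, T/S/Z, T/5z/N, T/S/Z/N and T/5z, and libraries overlapped between DMSO and N, between T/5z/N and its T/S/Z/N counterpart, and between the latter and T/5z.

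**Figure D2:**
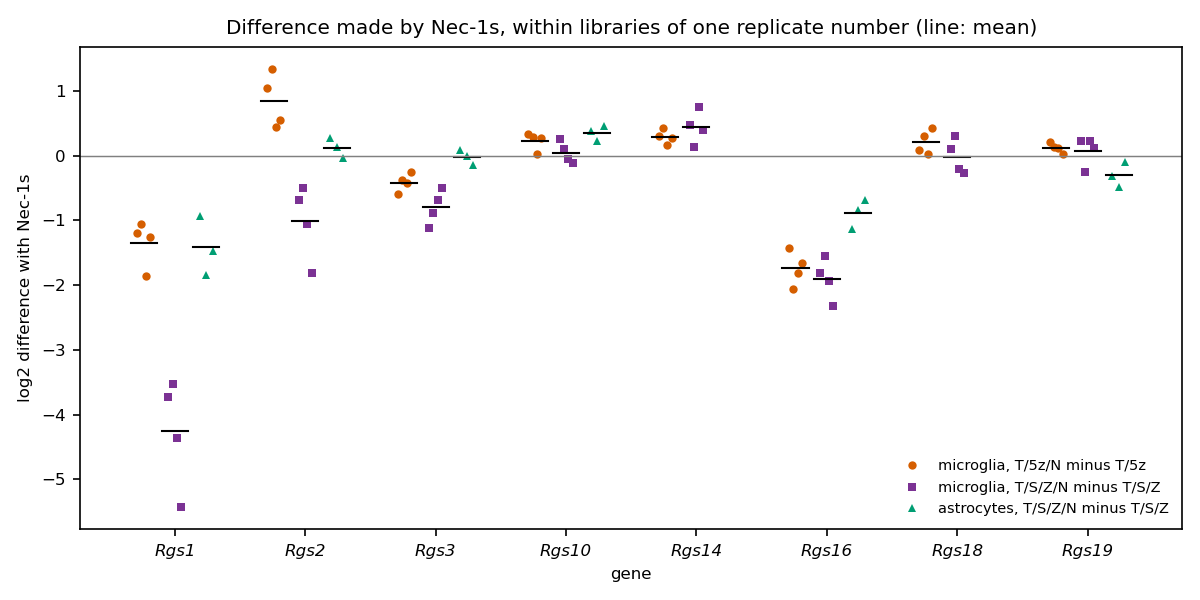
Difference in log2(FPKM + 1) made by Nec-1s on the vertical axis for each gene on the horizontal axis, one point per replicate number, for microglia after T/5z (circles), microglia after T/S/Z (squares) and astrocytes after T/S/Z (triangles), with a line at the mean. Rgs2 is above 0 after T/5z (0.44 to 1.34) and below 0 after T/S/Z (-1.81 to -0.50) in microglia, while Rgs1 and Rgs16 are below 0 in all 3 settings.

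Rgs16, which acts on Gi and Gq alpha subunits, rose with each mixture and was close to the vehicle level where Nec-1s was added. Its level was 1.62, 1.74, 1.62 and 1.27 in DMSO, 3.51, 3.86, 3.64 and 3.69 with T/5z, and 3.73, 3.46, 3.91 and 4.16 with T/S/Z. The difference from DMSO was 2.11 (SE 0.094, limma adjusted p = 3.32e-06) with T/5z and 2.25 (SE 0.16, limma adjusted p = 1.29e-05) with T/S/Z. The mixtures were not told apart, with a difference of 0.14 and a 95% interval of -0.17 to 0.45.

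With Nec-1s, Rgs16 was 2.08, 1.80, 1.83 and 2.03 after T/5z and 1.91, 1.91, 1.98 and 1.83 after T/S/Z. The fall was -1.74 (SE 0.096, limma adjusted p = 6.25e-06) in the first case and -1.90 (SE 0.11, limma adjusted p = 1.4e-05) in the second. As a share of the rise on the log2 scale, 82.2% and 84.6% was taken back. All libraries with a mixture and Nec-1s were still above every DMSO library, by 0.38 (SE 0.12, limma adjusted p = 0.0348) and 0.35 (SE 0.088, limma adjusted p = 0.0136), which is under the 1.5-fold limit. The 9 astrocyte markers in microglial libraries summed to 7.17 to 9.14 FPKM in DMSO, 12.1 to 22.2 with T/5z, 13.7 to 19.9 with T/S/Z, 8.15 to 8.95 with T/5z/N and 4.88 to 6.02 with T/S/Z/N, so they were higher in the same groups as Rgs16, and their part in its level was not tested.

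Rgs3, an R4 gene with several transcript forms, also rose with each mixture, but less of the rise was taken back by Nec-1s. Its level was 1.62, 1.47, 1.64 and 1.65 in DMSO, 4.09, 3.92, 3.85 and 3.83 with T/5z, and 3.67, 3.69, 3.61 and 3.54 with T/S/Z. The rise was 2.33 (SE 0.075, limma adjusted p = 9.44e-07) with T/5z and 2.03 (SE 0.077, limma adjusted p = 5.75e-07) with T/S/Z, that is 5.01-fold and 4.08-fold. No library overlapped between any mixture and DMSO.

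After T/5z, Nec-1s gave Rgs3 levels of 3.49, 3.54, 3.42 and 3.57, a difference of -0.42 (SE 0.062, limma adjusted p = 0.000908) that is under the 1.5-fold limit. After T/S/Z the levels were 2.55, 2.81, 2.92 and 3.04, a fall of -0.80 (SE 0.097, limma adjusted p = 0.000349). The share of the rise taken back was 18.0% and 39.3% on the log2 scale, and 31.6% and 55.7% in FPKM. Between the Nec-1s groups, Rgs3 was lower with T/S/Z/N than with T/5z/N (-0.67, SE 0.077, limma adjusted p = 0.000425), and both groups stayed above DMSO, by 1.91 (SE 0.072, limma adjusted p = 7.57e-07) and 1.23 (SE 0.092, limma adjusted p = 3.44e-05). With 5 in place of 1 as the offset inside the log, the differences of -0.80 and -0.67 became -0.56 and -0.46 and were no longer called.

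Rgs14, a scaffold that joins an RGS domain to Ras-binding and GoLoco motifs, fell with each mixture. Its level was 2.64, 2.56, 2.88 and 2.97 in DMSO, 1.34, 1.37, 1.41 and 1.3 with T/5z, and 1.73, 1.93, 1.5 and 1.66 with T/S/Z, without overlap with DMSO. The fall was -1.41 (SE 0.092, limma adjusted p = 1.77e-05) with T/5z and -1.06 (SE 0.13, limma adjusted p = 0.000183) with T/S/Z. With Nec-1s it was 1.64, 1.79, 1.57 and 1.57 after T/5z and 2.20, 2.07, 2.25 and 2.05 after T/S/Z, higher in 4 of 4 same-numbered libraries in each case by 0.29 (SE 0.079, limma adjusted p = 0.0174) and 0.44 (SE 0.10, limma adjusted p = 0.00673), both under the 1.5-fold limit. Against DMSO, T/5z/N was at -1.12 (SE 0.11, limma adjusted p = 9.07e-05) and T/S/Z/N at -0.62 (SE 0.092, limma adjusted p = 0.00115). The last call was lost without replicate 4 (-0.52), after quantile normalization (-0.54) and with an offset of 5 in place of 1 inside the log (-0.36), which also ended the T/S/Z call (-0.57).

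Rgs10, a small protein with little beyond its RGS domain, had the highest level of the 8 genes in DMSO-treated microglia. Its level was 7.46, 7.46, 7.52 and 7.67 in DMSO, 6.84, 6.93, 7.11 and 6.84 with T/5z, and 6.94, 6.95, 6.84 and 6.96 with T/S/Z. Each mixture lay below DMSO without overlap, by -0.60 (SE 0.071, limma adjusted p = 0.000307) and -0.61 (SE 0.053, limma adjusted p = 3.31e-05), which is 1.51-fold and 1.52-fold and so just past the limit. Centring libraries on their median gave -0.53 and -0.51, and leaving out replicate 4 gave -0.52 and -0.57, none of which was called. Leaving out replicate 3 ended the T/S/Z call (-0.58), and the offset of 5 ended the T/5z call (-0.58). With Nec-1s the T/S/Z/N libraries held at 7.19, 7.05, 6.79 and 6.84 and were not called against T/S/Z (0.04, SE 0.066) or against DMSO (-0.56, SE 0.096), although the latter passed without replicate 1 (-0.66), without replicate 2 (-0.61) and with quantile normalization (-0.72). The T/5z/N libraries were at 7.18, 7.22, 7.13 and 7.11, against T/5z a difference of 0.23 (SE 0.056, limma adjusted p = 0.0094) under the 1.5-fold limit.

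Rgs18, known mainly from platelets and other blood cells, was near the detection limit. It reached a level of 1 in 3 DMSO libraries and 1 N library and passed the filter on low values through these alone, so its differences from DMSO support nothing. Its level was 0.74, 1.11, 1.27 and 1.21 in DMSO, 0.64, 0.45, 0.56 and 0.25 with T/5z, and 0.79, 0.53, 0.83 and 0.77 with T/S/Z. The T/5z difference was -0.61 (SE 0.15, limma adjusted p = 0.00988) and was not called without replicate 3 (-0.57), without replicate 4 (-0.49), with median centring (-0.54) or with the offset of 5 (-0.18), and T/S/Z libraries overlapped DMSO (-0.36, SE 0.12). With Nec-1s it ranged from 0.59 to 0.76 after T/5z and from 0.50 to 0.89 after T/S/Z.

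Rgs19, an RZ-type protein that binds Gi alpha subunits, moved least. Its microglial group means ran from 5.20 with T/5z to 5.42 with N. The T/5z libraries were 5.14, 5.21, 5.18 and 5.27 against 5.27, 5.38, 5.37 and 5.47 in DMSO, a difference of -0.17 (SE 0.043, limma adjusted p = 0.0103) far under the 1.5-fold limit, and T/S/Z gave -0.16 (SE 0.067, limma adjusted p = 0.0593). Each neighbouring pair in the order of its 6 group means had overlapping libraries.

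After T/5z, Nec-1s called 2.64% of all genes higher and 4.52% lower. Among the 8 genes Rgs2 was past the limits upward and Rgs1 and Rgs16 downward, and of these the Rgs1 and Rgs2 values were known when the genes were chosen, so nothing is read from the count. After T/S/Z, Rgs1, Rgs2, Rgs3 and Rgs16 were past the limits downward, where 6.72% of all genes were called lower and 5.35% higher. The Rgs1 value was again known, so nothing is read from this count. Against DMSO, T/5z/N called Rgs3 higher (6.16% of all genes) and Rgs14 lower (6.69%), with Rgs1 and Rgs2 past the limits downward as described values. T/S/Z/N called Rgs3 higher (6.2% of all genes) and Rgs2 and Rgs14 lower (7.87%), with Rgs1 past the limits downward as a described value. Nothing is read from the size of either set. In T/S/Z against T/5z, Rgs1 and Rgs2 were past the limits upward and 0 genes downward, where 5.42% and 4.42% of all genes were, and nothing is read from this because both rest on known values. T/S/Z/N against T/5z/N called 1 lower (Rgs3; 1.59%) and 0 higher (1.8%). The Nec-1s differences after the 2 mixtures differed past the limits for 6.47% of all genes. No count is drawn from Rgs1 and Rgs2, whose values were known, and the differences of Rgs3 were 0.38 apart (SE 0.13, limma adjusted p = 0.0466), under the 1.5-fold limit.

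In astrocytes the 6 listed genes were ordered within their own table, whose gene models are not those of the microglial table (Rgs1 had an exon length of 6947 bases here and of 3841 bases there), so levels are not set against microglia. In DMSO Rgs2 (4.43 ± 0.11, SD, n = 3) and Rgs19 (4.33 ± 0.065) overlapped at the top, Rgs16 (3.93 ± 0.017) and Rgs10 (3.90 ± 0.041) overlapped next, and Rgs3 (3.24 ± 0.27) and Rgs1 (0.83 ± 0.10) were lowest. Nec-1s alone called 0 of the 6 genes and 0.0144% of all genes, with 790 of 13842 genes at an unadjusted p under 0.05. Rgs16 was the lone member of the 6 at that level, with 4.15, 4.20 and 4.33 in N libraries, 0.30 above DMSO (SE 0.08, limma adjusted p = 0.85).

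T/S/Z called 4 of the 6 genes in astrocytes, 3 higher (Rgs1, Rgs16 and Rgs19; 6.39% of all genes) and 1 lower (Rgs2; 8.99% of all genes). Adding Nec-1s to T/S/Z called 2 lower (Rgs1 and Rgs16; 1.59%) and 0 higher (1.51%). Rgs1 passed the filter mainly through its T/S/Z libraries, so nothing is read from its part in these counts. T/S/Z/N against DMSO called 1 higher (Rgs16; 4.36%) and 0 lower (4.72%).

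Rgs16 in astrocytes had the largest difference from DMSO of the 8 genes in either cell type. Its astrocyte level was 3.95, 3.92 and 3.92 in DMSO and 7.85, 7.66 and 7.60 with T/S/Z, a 13.7-fold rise (3.77, SE 0.076, limma adjusted p = 2.54e-07) that made it the highest of the 6 genes. Under T/S/Z/N its level was 6.71, 6.82 and 6.91, below T/S/Z in 3 of 3 same-numbered libraries (-0.89, SE 0.10, limma adjusted p = 0.00481). It stayed 7.40-fold above DMSO (2.89, SE 0.072, limma adjusted p = 6.88e-06). On the log2 scale the share of the rise taken back by Nec-1s was 23.5% in astrocytes, with 18.6% to 29.1% over the same-numbered libraries, and 80.3% to 89.7% in microglia after T/S/Z. In FPKM it was 49.6% in astrocytes (40.9% to 58.4%) and 93.1% in microglia (92.5% to 94.3%), so the astrocyte share depends on the scale. The tables were scaled separately, so this contrast between cell types was not tested.

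**Figure D3:**
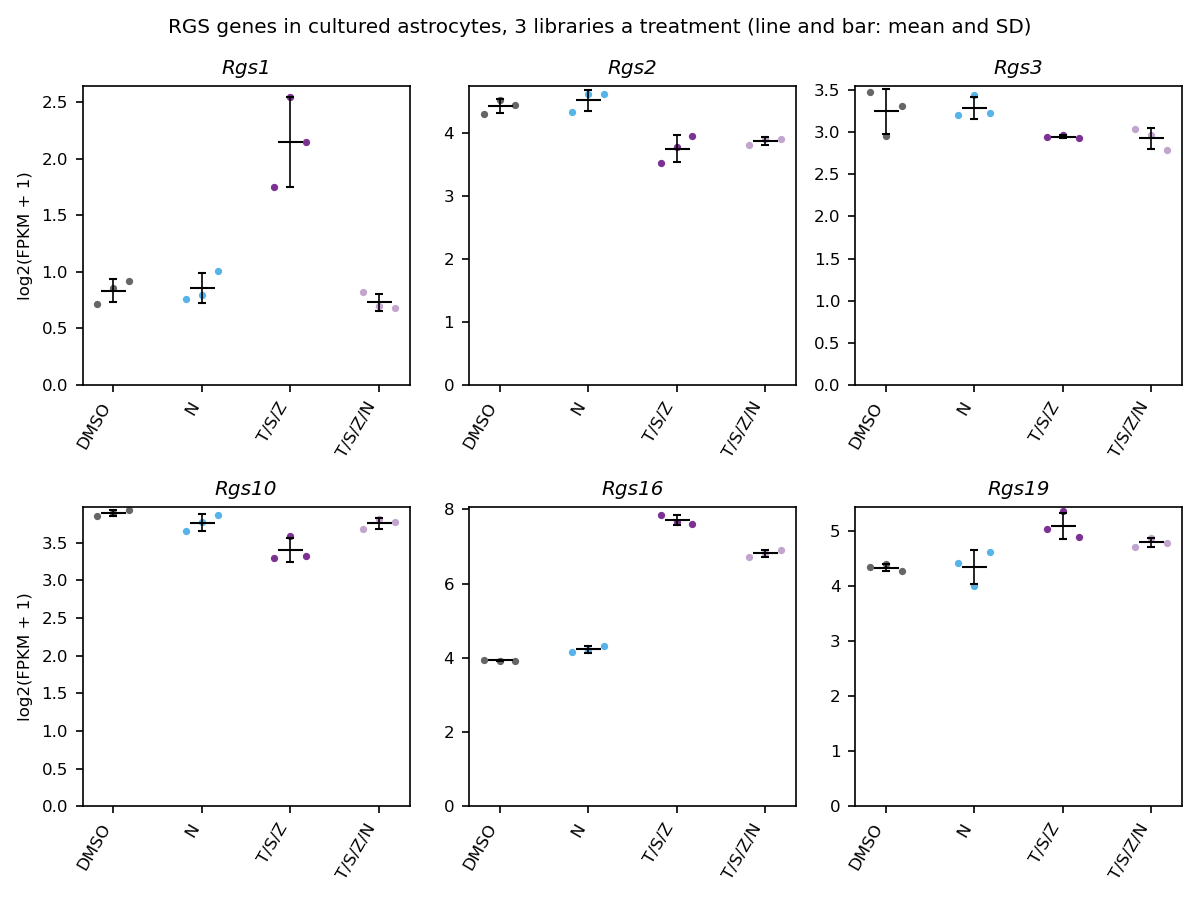
Level of the 6 RGS genes listed in astrocytes, as log2(FPKM + 1) on the vertical axis, in every library of the 4 treatments on the horizontal axis, with points for libraries and the line and bar for mean and SD (n = 3). Rgs16 stands at 7.60 to 7.85 with T/S/Z and 6.71 to 6.91 with T/S/Z/N, above DMSO at 3.92 to 3.95, and Rgs1 is highest in the T/S/Z libraries (1.75 to 2.55).

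Rgs1 was 0.72, 0.86 and 0.92 in DMSO, 1.75, 2.55 and 2.15 with T/S/Z, and 0.82, 0.70 and 0.68 with T/S/Z/N. It passed the filter on low values through the T/S/Z libraries and 1 N library, so its differences with T/S/Z support nothing. The values were 1.31 (SE 0.15, limma adjusted p = 0.000588) for T/S/Z against DMSO and -1.42 (SE 0.17, limma adjusted p = 0.00496) for T/S/Z/N against T/S/Z. Neither was called with an offset of 5 inside the log (0.55 and -0.58). The 10 microglial markers, all of which had a row in astrocytes, summed to 78.3 to 84.0 FPKM in DMSO, 83.8 to 84.4 with N, 47.8 to 51.7 with T/S/Z and 70.3 to 73.9 with T/S/Z/N. In the microglial libraries Rgs1 was itself higher with T/S/Z, with means of 4.47 in DMSO, 7.31 with T/S/Z and 3.05 with T/S/Z/N. The part that remaining microglia had in the Rgs1 values was not tested.

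Rgs2 was lower with T/S/Z in astrocytes too. Its level was 4.31, 4.53 and 4.45 in DMSO, 3.53, 3.78 and 3.95 with T/S/Z, and 3.81, 3.91 and 3.91 with T/S/Z/N. The T/S/Z fall was -0.68 (SE 0.089, limma adjusted p = 0.00124), not called with the offset of 5 (-0.55). T/S/Z and T/S/Z/N overlapped (0.12, 95% interval -0.11 to 0.35).

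Rgs19 was higher with T/S/Z in every astrocyte library, at 5.02, 5.35 and 4.88 against 4.34, 4.39 and 4.26 in DMSO (0.75, SE 0.091, limma adjusted p = 0.000883), a 1.68-fold rise. Under T/S/Z/N the level was 4.71, 4.86 and 4.78, below T/S/Z in 3 of 3 same-numbered libraries without a call (-0.30, SE 0.10, limma adjusted p = 0.104). Rgs10 was 3.85, 3.90 and 3.93 in DMSO, 3.30, 3.59 and 3.32 with T/S/Z and 3.68, 3.82 and 3.78 with T/S/Z/N, and its T/S/Z difference of -0.49 (SE 0.095, limma adjusted p = 0.00644) was under the 1.5-fold limit. Rgs3 was 3.47, 2.95 and 3.31 in DMSO and 2.94, 2.97 and 2.93 with T/S/Z, which overlapped (-0.29, 95% interval -0.59 to 0.00), whereas its microglial level rose. Fibroblast markers in the astrocyte libraries summed to 515 to 525 FPKM in DMSO, 95.2 to 105 with T/S/Z and 418 to 424 with T/S/Z/N, so they moved with T/S/Z and with Nec-1s. In the same order, endothelial markers summed to 13.6 to 14.7, 5.79 to 6.43 and 11.5 to 14.1 FPKM. Oligodendrocyte lineage markers summed to 98.5 to 116, 58.4 to 84.3 and 66.3 to 69.9 FPKM. The part of such cells in the astrocyte values was not tested.

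**Figure D4:**
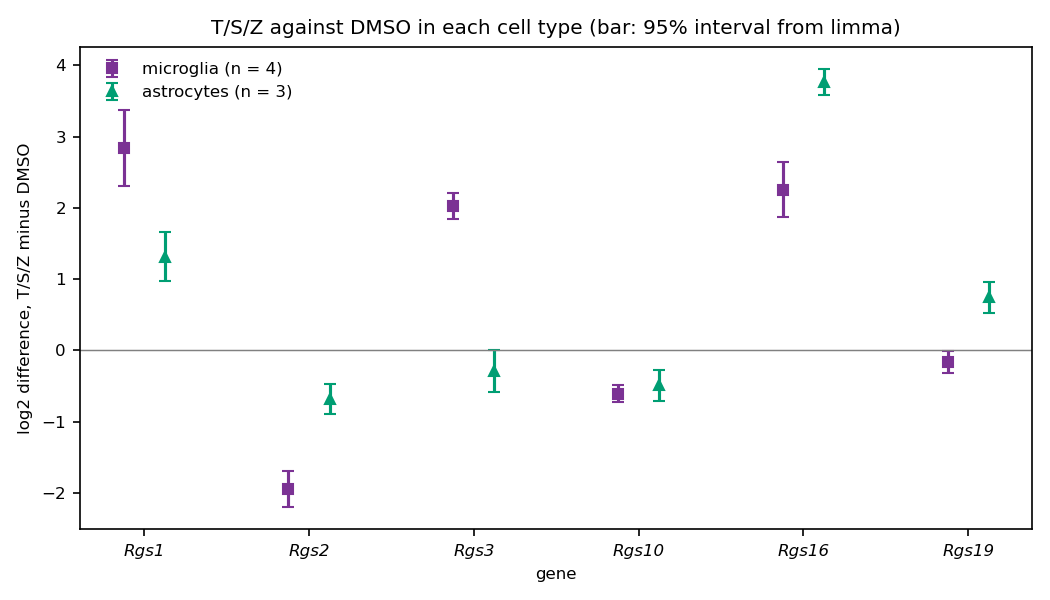
Difference in log2(FPKM + 1) between T/S/Z and DMSO on the vertical axis for the 6 genes listed in both tables on the horizontal axis, with squares for microglia (n = 4), triangles for astrocytes (n = 3) and bars for the 95% interval from limma. Rgs3 is at 2.03 in microglia and -0.29 in astrocytes, Rgs19 at -0.16 and 0.75, and Rgs16 is above 0 in both.

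Most of the remaining RGS genes were under the filter in microglia and above it in astrocytes. Of the 13 others searched, 9 had a row in the microglial table and 1, Rgs12, passed the filter, while all 11 with a row in astrocytes passed. Rgs12, a large R12 protein, was 1.25, 1.21, 1.20 and 1.32 in microglia with DMSO and 0.82, 0.77, 0.98 and 0.85 with T/S/Z, and at 1.38, 1.3, 1.27 and 1.38 with T/S/Z/N. Its differences of -0.39 (T/S/Z against DMSO) and 0.48 (T/S/Z/N against T/S/Z) were under the 1.5-fold limit, and because it was below 1 in every T/S/Z library and passed the filter through other groups, they support nothing. In astrocytes Rgs12 fell with T/S/Z by -0.68 (SE 0.11, limma adjusted p = 0.00288).

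With T/S/Z in astrocytes, 2 of the 11 others were called higher and 1 lower, where 6.39% and 8.99% of all genes were. The 2 higher were Rgs8 (1.22, SE 0.098, limma adjusted p = 0.000119) and Rgs9 (0.75, SE 0.14, limma adjusted p = 0.00507), and the lower was Rgs12. Rgs6 lay just inside the limit at 1.49-fold lower (-0.58, SE 0.11, limma adjusted p = 0.00516). Rgs4, an R4 gene, was the lone call among the 11 between T/S/Z/N and T/S/Z, where 1.51% of all genes were called higher and 1.59% lower. Its level was 2.33, 2.49 and 2.45 in DMSO, 2.71, 2.91 and 2.88 with T/S/Z and 3.85, 4.01 and 3.89 with T/S/Z/N. The Nec-1s difference was 1.08 (SE 0.091, limma adjusted p = 0.0011). Against DMSO, T/S/Z/N called 2 of the 11 higher, Rgs4 (1.49, SE 0.079, limma adjusted p = 0.00012) and Rgs8 (0.89, SE 0.094, limma adjusted p = 0.00159), and 0 lower. Over all genes 4.36% were called higher and 4.72% lower there. Fibroblast markers were at 515 to 525 FPKM in DMSO, 95.2 to 105 with T/S/Z and 418 to 424 with T/S/Z/N, and their part in Rgs4 was not tested. The other values for T/S/Z against DMSO ran from -0.31 for Rgs22 to 0.41 for Rgs4, with Rgs20 at -0.30, Rgs5 and Rgs11 at -0.21, Rgs17 at 0.00 and Rgs7 at 0.28, none of them called.

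Rgs8, the upstream neighbour of Rgs16 on the same strand, was too low in microglia to be tested. It was at 0.36, 0.47, 0.10 and 0.34 in DMSO, 0.89, 0.90, 1.16 and 0.68 with T/5z, and 0.85, 0.56, 1.03 and 0.96 with T/S/Z, and all 8 libraries with Nec-1s and a mixture were at 0.09 to 0.31. In astrocytes it was 1.64, 1.70 and 1.76 in DMSO, 2.89, 2.96 and 2.91 with T/S/Z, and 2.60, 2.47 and 2.72 with T/S/Z/N. The astrocyte markers in microglial libraries, given beside Rgs16, were likewise highest with T/5z and T/S/Z, and their part in the Rgs8 values was not tested. Whether reads of the neighbours are mixed was not tested either.

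**Figure D5:**
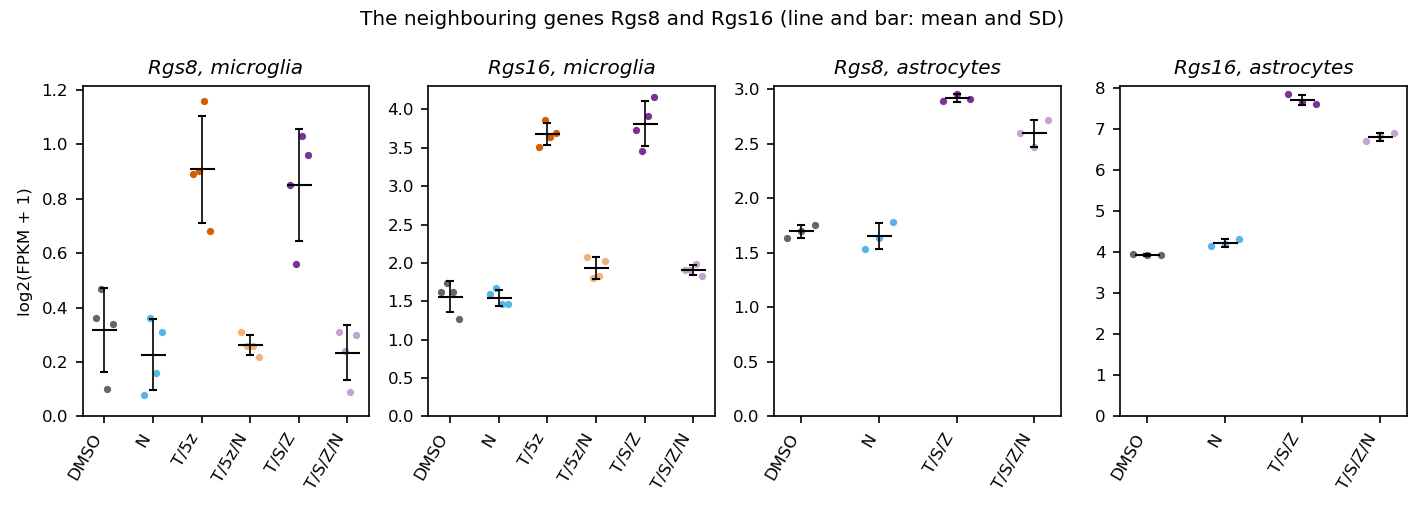
Level of the neighbouring genes Rgs8 and Rgs16, as log2(FPKM + 1) on vertical axes that differ between panels, by treatment on the horizontal axis in microglia (n = 4) and astrocytes (n = 3), with points for libraries and the line and bar for mean and SD. Both genes are higher with T/S/Z than in DMSO in each cell type, at 0.56 to 1.03 against 0.10 to 0.47 for Rgs8 in microglia, where astrocyte markers were also higher and Rgs8 was too low to be tested.

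The patterns of other microglial genes were compared with each of the 8 genes over the 24 libraries, as a description. All 10524 genes tested share these libraries, treatments and replicate adjustment. The genes with the highest Pearson r were Got1 (0.986), Ehd4 (0.986) and Lpar6 (0.980) for Rgs2, Fnbp1l (0.987), Sema4d (0.986) and Mapkapk2 (0.984) for Rgs3, and Rapgef2 (0.975), Wdr1 (0.972) and Sap30 (0.969) for Rgs16. They were Eif1a (0.966), Selenok (0.964) and Cap1 (0.963) for Rgs1, Erp29 (0.978), Hfe (0.968) and Abhd12 (0.966) for Rgs10, and Ssh2 (0.977), Ccny (0.973) and D1Ertd622e (0.971) for Rgs14. For the low or steady genes r was smaller, with Zranb3 (0.867), Lap3 (0.842) and Paip2 (0.842) for Rgs18 and Alg1 (0.832), Stard3 (0.830) and Pigo (0.826) for Rgs19. Among the 8 genes, Rgs3 and Rgs14 ran opposite to each other (r = -0.96), as did Rgs2 and Rgs3 (r = -0.88), while Rgs1 had r = 0.71 with Rgs16 and r = 0.15 with Rgs2.

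The G-protein subunits on which RGS proteins act, and the receptors and enzymes around them, were counted as lists. In microglia, of 8 alpha subunits tested, T/S/Z called 1 higher and 0 lower, where 12.2% of all genes were called higher and 17.5% lower, and the median difference was 0.08 against -0.08 over all genes. The called gene was Gna13 (1.13, SE 0.071, limma adjusted p = 5.9e-06). Of 11 beta and gamma subunits, 1 was higher (Gng4, 0.91) and 1 lower (Gng2, -0.72, SE 0.083, limma adjusted p = 0.000139). Gng4 was below 1 in every DMSO library and passed the filter through the treated groups, so its difference supports nothing. With T/5z the calls were 1 higher and 1 lower in each of these lists, where 11.1% and 13.3% of all genes were called. Counts of this size are near those shares. The effector enzymes and Gi-coupled receptors below were called more often than those shares, in each direction and with each mixture. All lists were chosen with earlier results of these data known, so nothing particular to a list is read from any of these counts.

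Receptor kinases and arrestins, which switch receptors off, gave 1 higher (Grk3, 1.11, a gene that passed the filter mainly through the treated groups) and 1 lower (Arrb1, -0.98, SE 0.063, limma adjusted p = 6.78e-06) of 6 tested with T/S/Z. GoLoco and other regulators gave 0 higher and 2 lower of 8, Gpsm2 (-0.68) and Arhgef11 (-0.61, SE 0.07, limma adjusted p = 0.000136). Gpsm2 was below 1 in every T/S/Z library and passed the filter through other groups, so its difference supports nothing. With T/5z the receptor kinases and arrestins gave 2 higher and 0 lower, and the GoLoco and other regulators 0 in either direction. Effector enzymes gave 5 higher and 4 lower of 10 with T/5z (median difference 0.75 against -0.06 over all genes), and 3 higher and 4 lower with T/S/Z, led there by the cAMP phosphodiesterases Pde4b (1.75, SE 0.11, limma adjusted p = 6.27e-06) and Pde4d (-1.27, SE 0.11, limma adjusted p = 2.94e-05), which went opposite ways. Gi-coupled receptors gave 4 higher and 6 lower of 14 with T/S/Z, and 3 higher and 9 lower of 14 with T/5z (median difference -1.13 against -0.06 over all genes). For all lists of this paragraph, the shares over all genes were 12.2% higher and 17.5% lower with T/S/Z. With T/5z they were 11.1% and 13.3%. The receptors that rose most with T/S/Z were the formyl peptide receptors Fpr1 (3.51, SE 0.18, limma adjusted p = 2.46e-06) and Fpr2 (2.71, SE 0.12, limma adjusted p = 9.41e-07).

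In astrocytes T/S/Z called 0 higher and 2 lower of 12 alpha subunits (Gna14, -0.62, and Gnai1, -0.59), 1 higher and 1 lower of 14 beta and gamma subunits (Gng4, 1.04, and Gng11, -1.63), and 1 higher and 1 lower of 7 receptor kinases and arrestins (Grk5, 0.68, and Grk4, -0.74). The shares over all genes were 6.39% higher and 8.99% lower, near most of these counts. Of 9 GoLoco and other regulators, 1 was lower (Gpsm2, -0.95) and 0 higher. Effector enzymes gave 3 higher and 1 lower of 15, of which the phosphoinositide 3-kinase adaptor Pik3r5 (3.67) and Pde4b (3.28, SE 0.074, limma adjusted p = 3.5e-07) differed most. Pik3r5 was below 1 in every DMSO library and passed the filter through T/S/Z and T/S/Z/N, so its difference supports nothing. Gi-coupled receptors gave 1 higher (S1pr1, 1.36, SE 0.074, limma adjusted p = 2.02e-05) and 3 lower of 7, of which Cxcr4 (-1.19, SE 0.093, limma adjusted p = 0.000111) fell most.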

How the data were processed

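RNA-seq values were used as deposited by the authors, 1 table per cell type, as log2(FPKM + 1). The authors computed FPKM with OmicSoft software and scaled each library to its 75th percentile before the log2 values were deposited. In the deposited microglial log2 table, the mean of every gene over the 6 libraries of replicates 1 to 3 equals that of replicate 4 (largest difference 6.67e-05), so a replicate adjustment had been applied. It left 187 to 1438 negative values per library of replicates 1 to 3, none in the 8 RGS genes, and it ties libraries of 1 number together. The aligner is not given in the sources used here. Read counts were not analysed here. From the smallest FPKM steps, depth was estimated at 21.6 to 29.4 M in microglial replicate 4 and 39.9 to 42.5 M in astrocytes, reads or fragments not being settled, and 66.1% and 80.9% of low values (medians over libraries) were within 0.1 of whole reads, so no count test was run. At that depth Rgs18 rested on 8.93 to 69.5 reads. Gene starts equalled GENCODE M21 for 84.61% of microglial and 100% of astrocyte genes.

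Genes with a log2 value of at least 1 in 4 microglial or 3 astrocyte libraries were tested with limma 3.58.1 (R 4.3.3, mean-variance trend) on the libraries compared, with replicate number as a block, as the study's tests were paired. There were 14 comparisons. Whether numbers mark pairs could not be checked in microglia, where the adjustment itself sets the correlation of same-numbered deviations (median r -0.249). In astrocytes it was -0.144 to 0.411 (median 0.0408), which does not show pairing. The fit was tested on simulated data. The 8 genes and all gene lists were chosen with earlier results of these data known. Named genes were the 8 RGS genes, all other RGS genes that passed the filter, the 2 called genes of each other list with the largest T/S/Z difference in each table, and the 3 genes most like each RGS gene. Rgs8 in microglia was named after its values were seen. Alternatives were 5 added before the log2, no filter, a mean log2 of at least 3, quantile normalization, median centring, no replicate block, no mean-variance trend and leaving out each replicate number.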

Additional observations from a re-analysis of the deposited data

Results flagged for a closer look

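In microglia, Dixon's test at the 5% level was applied to the 48 groups of 4 libraries formed by the 8 RGS genes and 6 treatments, and 3 held a library far from the rest, where chance alone flags about 1 in 20. These were the lowest Rgs3 library in DMSO (1.47) and in N (1.65) and the lowest Rgs10 library with T/S/Z (6.84).

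For 3 of the 8 genes in microglia, the Nec-1s differences after the 2 mixtures are set side by side here. For Rgs1 the differences after T/5z and T/S/Z were 2.92 apart on the log2 scale, as a description. For Rgs2 they were 1.85 apart, with every same-numbered library higher after T/5z and every one lower after T/S/Z, and this difference was not tested because part of it was known. For Rgs3 they were 0.38 apart (limma adjusted p = 0.0466), under the 1.5-fold limit, where 6.47% of all genes were past both limits.

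Between the cell types, every same-numbered library of Rgs19 was lower with T/S/Z than with DMSO in microglia (-0.16) and higher in astrocytes (0.75). This difference between cell types was not tested.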

How the results depend on the processing

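Counts of RGS genes called moved by over 1.5 times under 2 alternatives. These counts take in the values of Rgs1 and Rgs2 that are described without a test, and nothing is read from their size. Requiring a mean log2 of at least 3 removed genes from testing and left 2 called in microglia with T/5z, 3 with T/S/Z, 2 for T/S/Z/N against T/S/Z, 2 for T/5z/N and 2 for T/S/Z/N against DMSO, 0 for T/S/Z/N against T/5z/N and, in astrocytes, 1 for T/S/Z/N against T/S/Z. With 5 added before the log2, the counts were 0 for T/S/Z/N against T/5z/N in microglia and, in astrocytes, 2 for T/S/Z and 1 for T/S/Z/N against T/S/Z. Without the replicate block the counts were the same as with it in all 14 comparisons, for example 6 in microglia with T/S/Z and 4 in astrocytes. Signs turned only in differences that were not called. Median centring gave 0.00 for Rgs2 (N against DMSO), -0.03 for Rgs10 (T/S/Z/N against T/S/Z) and 0.02 for Rgs10 (T/S/Z against T/5z) in microglia. Quantile normalization gave 0.04 for Rgs18 (T/S/Z/N against T/S/Z), -0.02 for Rgs19 (T/S/Z against T/5z) and 0.00 for Rgs16 (T/S/Z/N against T/5z/N). Leaving out each replicate number in turn gave, for N against DMSO in microglia, -0.02 to 0.01 for Rgs2, -0.05 to 0.01 for Rgs10 and -0.09 to 0.03 for Rgs16. For T/S/Z/N against T/S/Z it gave -0.02 to 0.10 for Rgs10 and -0.12 to 0.07 for Rgs18, and for T/S/Z against T/5z -0.03 to 0.06 for Rgs19 and -0.05 to 0.08 for Rgs10. For T/S/Z/N against T/5z/N it gave -0.02 to 0.09 for Rgs18, -0.09 to 0.03 for Rgs16 and -0.07 to 0.04 for Rgs19, and for the gap between Nec-1s differences -0.07 to 0.09 for Rgs19. In astrocytes N against DMSO ranged from -0.16 to 0.21 for Rgs19, -0.17 to 0.21 for Rgs3 and -0.01 to 0.06 for Rgs1, and T/S/Z/N against T/S/Z from -0.07 to 0.04 for Rgs3. The causes were not tested.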
